A study of Mus musculus with 15 samples.

Results

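The phagocyte NADPH oxidase subunits Cybb, Cyba, Ncf1, Ncf4 and Rac2 were followed by RNA-seq in MLL-ENL-transformed mouse cells. These 5 genes were taken by symbol from the 53379 genes of the table, of which 24520 had any read and 12673 passed a filter on low values, among them all 5 subunits. The cells were fetal liver hematopoietic progenitors transformed with a retrovirus encoding the MLL-ENL oncogene, and all were kept in IMDM with 10 ng/ml of IL-3. There were 5 groups of 3 libraries. WT cells of clones C1 and C2 carried floxed, unrecombined Cebpa and Cebpb alleles and no further vector. The dKO cells of both clones had lost Cebpa and Cebpb after treatment with TAT-Cre, a cell-permeable Cre recombinase, and carried a GFP vector. The dKO-LAP* cells of clone C1 were dKO cells that carried GFP and rat LAP*, the longest isoform of C/EBPβ. Each line stands for 1 clone of 1 mouse, and the dKO lines are subclones that survived the loss of both genes. The 3 libraries of a group are RNA isolations from 1 line at different times, so the p-values measure the spread within a line and not between mice.

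Each library held between 9212237 and 13613500 gene reads. Levels are given as normalized reads, which are read counts divided by 1 size factor per library. Fold changes are on the log2(normalized reads + 1) scale with adjusted p from limma across all 12673 genes, and a gene was called at an adjusted p under 0.05. Cebpa and Cebpb were at 0 in all 6 dKO libraries. Cebpb was at 3106 ± 961 (SD, n = 3) in dKO-LAP* cells. Cebpe, another gene of this family, was at 407.5 ± 55.8 in C1 WT and 505 ± 10.5 in C2 WT cells. It was higher in the other groups, at 2107 ± 143 in C1 dKO, 1809 ± 257 in dKO-LAP* and 2166 ± 51.9 in C2 dKO cells (SD, n = 3 each). Alb, Ttr and Apoa1, which mark hepatocytes, were at 0 in all 15 libraries. Afp, the other gene of that list, was at 31.9 ± 4.57 normalized reads in C1 WT and 129.8 ± 30.8 in C2 WT cells (SD, n = 3 each). The myeloid progenitor gene Elane was at 37650 ± 2630 in C1 WT and 40970 ± 1900 in C2 WT cells (SD, n = 3 each). Mpo, another progenitor gene, was at 14170 ± 1490 in C1 WT and 2798 ± 1100 in C2 WT cells. The progenitor gene Cd34 was at 5.21 ± 2.08 normalized reads in C1 WT and 1.01 ± 1.05 in C2 WT cells, against 2623 ± 199 in C1 dKO, 2907 ± 102 in dKO-LAP* and 6365 ± 543 in C2 dKO cells (SD, n = 3 each).

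The oxidase moves electrons from cytosolic NADPH across a membrane to oxygen and so makes superoxide, which phagocytes use against ingested microbes. Its membrane core is flavocytochrome b558, a heterodimer of gp91phox, the catalytic subunit encoded by Cybb, and p22phox, encoded by Cyba. On stimulation cytosolic subunits, among them p47phox (Ncf1) and p40phox (Ncf4), move to this core, together with a GTP-loaded Rac protein, which is Rac2 in neutrophils. Loss of a core or organizer subunit causes chronic granulomatous disease. In the myeloid lineage the CYBB promoter is known as a target of PU.1 and interferon regulatory factors, and its activity rises late in maturation.

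Promoter windows of 3 subunits (RefSeq, build GRCm38.p6) are shown because Cybb differed so much from its partners. The set of windows used here held none for Ncf4 or Rac2. Each window has 300 bases, 250 before and 50 after the RefSeq start, and is written 5′ to 3′ on the strand of the gene, which is the minus strand for all 3. Capitals mark matches on either strand to 4 motifs: TTGCNNAA for C/EBP half-sites, the box CCAAT, a core of PU.1 sites with the letters GAGGAA, and GAAANNGAA for interferon regulatory factors (IRF). No matches overlapped in these windows. The RefSeq start of Cybb lies inside the gene span that GENCODE gives, so the annotations place its start differently.
Cybb, chrX:9469275-9469574: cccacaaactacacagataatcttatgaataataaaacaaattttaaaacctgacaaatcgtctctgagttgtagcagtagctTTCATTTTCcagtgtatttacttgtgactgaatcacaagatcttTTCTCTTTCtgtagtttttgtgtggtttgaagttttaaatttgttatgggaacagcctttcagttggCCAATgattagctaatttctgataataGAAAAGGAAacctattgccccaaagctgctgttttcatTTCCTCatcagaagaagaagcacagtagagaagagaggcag
Cyba, chr8:122432891-122433190: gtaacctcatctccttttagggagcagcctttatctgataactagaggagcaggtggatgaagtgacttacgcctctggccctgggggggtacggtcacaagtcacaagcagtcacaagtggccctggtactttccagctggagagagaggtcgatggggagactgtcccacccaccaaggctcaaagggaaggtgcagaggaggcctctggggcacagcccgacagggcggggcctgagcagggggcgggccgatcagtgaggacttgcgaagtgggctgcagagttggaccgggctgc
Ncf1, chr5:134229576-134229875: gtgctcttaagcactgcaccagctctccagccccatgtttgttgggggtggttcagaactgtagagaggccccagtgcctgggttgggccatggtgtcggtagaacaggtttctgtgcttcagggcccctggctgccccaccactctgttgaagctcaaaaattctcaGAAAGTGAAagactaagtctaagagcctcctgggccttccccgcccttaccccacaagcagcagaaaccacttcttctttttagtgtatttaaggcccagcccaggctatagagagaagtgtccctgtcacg
The Cybb window held 3 IRF matches, 1 CCAAT match and 1 PU.1 match, the Ncf1 window 1 IRF match, and the Cyba window none of the 4 motifs. None of the 3 windows held TTGCNNAA. Among all 32851 promoter windows of this length, 8.56% held at least 1 IRF match, 37.4% CCAAT, 28.3% the PU.1 motif and 10.8% TTGCNNAA. The GC content was 35.3% for Cybb, 60.7% for Cyba and 54.0% for Ncf1, and 3.98% of all windows had less GC than that of Cybb. A match is a run of letters and not a measured binding site.

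Cybb, on chromosome X at positions 9435252 to 9487771 of mm10 (minus strand), fell with loss of Cebpa and Cebpb in clone C1. The 3 C1 WT libraries held 10198, 11542 and 10618 normalized reads and the 3 C1 dKO libraries 1687, 1621 and 1995. Every C1 WT library lay above every C1 dKO library, and the fitted level was 6.12-fold lower in dKO cells (log2 fold change -2.61 ± 0.26 SE, adjusted p = 1.1e-06, limma). In bulk RNA, fewer cells that express the gene and less RNA per cell cannot be told apart. The dKO-LAP* libraries held 466, 581 and 485 normalized reads. All 3 were below the dKO libraries, a further 3.46-fold lower (log2 fold change -1.79 ± 0.26 SE, adjusted p = 0.0008, limma). Cybb in dKO-LAP* cells was thus farther from WT than in dKO cells, at 21.2-fold below the C1 WT level (log2 fold change -4.40 ± 0.26 SE, adjusted p = 3.5e-09, limma).

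In clone C2 Cybb was low before and after the deletion. The C2 WT libraries held 102, 216 and 284 normalized reads and the C2 dKO libraries 168, 111 and 127. These ranges overlapped, and the change did not pass the test (log2 fold change -0.46, 95% interval -1.02 to 0.09, adjusted p = 0.18, limma). The first C2 WT library held the least Cybb of all 15. Without it the log2 fold change was -0.89 and passed the test (adjusted p = 0.00071, limma). Without the third C2 WT library it was -0.15 and did not pass (adjusted p = 0.67, limma). The dKO effect differed between the clones by 2.15 ± 0.37 SE on the log2 scale (adjusted p = 0.00039, limma). C2 WT cells held 58.2-fold less Cybb RNA than C1 WT cells (log2 fold change -5.86 ± 0.26 SE, adjusted p = 7.5e-11, limma). From the highest to the lowest mean, the order was C1 WT, C1 dKO, C1 dKO-LAP*, C2 WT and C2 dKO, and only the last pair overlapped.

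Cyba (chromosome 8, 122424776 to 122432930, minus strand) encodes the partner of gp91phox in the membrane. Its C1 WT libraries held 4385, 4466 and 4277 normalized reads, and its C1 dKO libraries 3322, 3479 and 3207. The dKO libraries were lower in 3 of 3 cases, by a log2 fold change of -0.39 ± 0.065 SE (1.31-fold, adjusted p = 0.00019, limma). The dKO-LAP* libraries held 3347, 3011 and 3176 and overlapped the dKO libraries. Their log2 difference from dKO was -0.07 (95% interval -0.21 to 0.07, adjusted p = 0.63, limma), while they stayed below WT (log2 fold change -0.46, adjusted p = 4e-05, limma).

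The C2 WT libraries held 3779, 3843 and 4104 normalized reads of Cyba, and the C2 dKO libraries 3846, 4294 and 4183. They overlapped, and the log2 fold change was 0.07 (95% interval -0.07 to 0.21, adjusted p = 0.42, limma). The effect in C2 minus that in C1 was 0.46 ± 0.092 SE (adjusted p = 0.0013, limma). Between the WT lines, Cyba was at a log2 difference of -0.16 in C2 (adjusted p = 0.056, limma), which passed without the third C2 WT library (-0.20, adjusted p = 0.0483). In the order of means C1 WT, C2 dKO, C2 WT, C1 dKO and dKO-LAP*, only C2 WT and C1 dKO were neighbours without overlap.

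**Figure D1:**
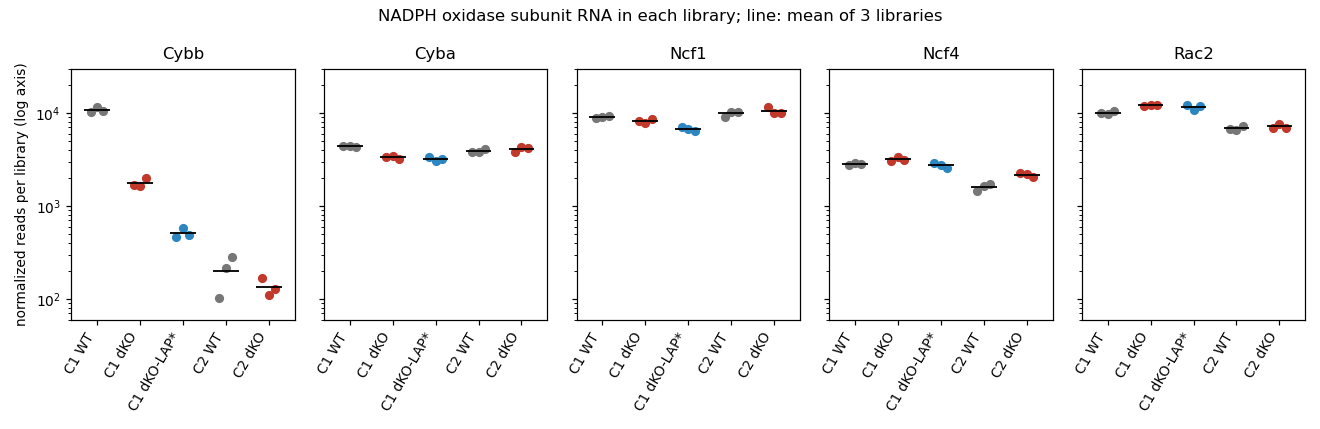
Normalized reads (log axis) of each subunit in every library; points are libraries, lines are means of 3, grey is WT, red dKO and blue dKO-LAP*. Cybb runs from 102 to 11542, while each of the other 4 genes keeps to a narrower band, such as 1459 to 3341 for Ncf4.

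Ncf1 (chromosome 5, 134220053 to 134229625, minus strand) encodes p47phox, the organizer that carries the cytosolic complex to the membrane. It overlaps Gtf2ird2 on the other strand, whose highest group mean was 134 normalized reads, and the strand setting of the counting is not given in the sources used here. The C1 WT libraries held 8801, 9144 and 9367 normalized reads of Ncf1 and the C1 dKO libraries 8266, 7878 and 8539. The ranges did not overlap, but the difference did not pass the test (log2 fold change -0.15, 95% interval -0.31 to 0.02, adjusted p = 0.16, limma). The dKO-LAP* libraries held 7104, 6730.05 and 6461 and lay below both other C1 groups. They passed against WT (log2 fold change -0.43 ± 0.077 SE, adjusted p = 0.00043, limma). Against dKO the log2 difference of -0.28 was at the threshold (adjusted p = 0.0503 by limma), and it passed with a pseudocount of 5 (0.0473) and with DESeq2 (0.01).

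In clone C2 the WT libraries held 9067, 10252 and 10279 normalized reads of Ncf1 and the dKO libraries 11646, 9982 and 10097. They overlapped (log2 fold change 0.10, 95% interval -0.07 to 0.26, adjusted p = 0.34, limma). The clones' dKO effects differed by 0.25 (95% interval 0.01 to 0.48, adjusted p = 0.11, limma), and the WT lines by 0.11 (95% interval -0.05 to 0.28, adjusted p = 0.26, limma). The means fell in the order C2 dKO, C2 WT, C1 WT, C1 dKO and dKO-LAP*. C2 WT overlapped C2 dKO and C1 WT, and the later neighbours did not overlap.

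Ncf4 (chromosome 15, 78244801 to 78262580, plus strand) encodes p40phox, which binds a phosphoinositide of the phagosome membrane. It was the subunit that rose in clone C2. The C2 WT libraries held 1459, 1646 and 1702 normalized reads and the C2 dKO libraries 2273, 2193 and 2056. All dKO libraries were above all WT libraries, by a log2 fold change of 0.44 ± 0.072 SE (1.36-fold, adjusted p = 0.00017, limma). In clone C1 the WT libraries held 2760.3, 2904 and 2850.03 and the dKO libraries 3067, 3341 and 3127. These also did not overlap, but the log2 fold change of 0.16 (95% interval 0.01 to 0.32) did not pass (adjusted p = 0.092, limma). With quantile normalization it was 0.29 and passed (adjusted p = 0.0085).

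The difference between the clones in the dKO effect on Ncf4 was 0.28 (95% interval 0.06 to 0.50, adjusted p = 0.0515, limma). It passed with DESeq2 (0.28, adjusted p = 0.042) and without the second C1 dKO library (0.32), the third C2 WT library (0.32) or the third C2 dKO library (0.32). The dKO-LAP* libraries held 2909, 2770.01 and 2563 normalized reads. They lay below the dKO libraries at a log2 difference of -0.21 (95% interval -0.36 to -0.06, adjusted p = 0.12, limma) and overlapped WT (log2 difference -0.05, 95% interval -0.20 to 0.11, adjusted p = 0.66). C2 WT cells held less Ncf4 than C1 WT cells (log2 fold change -0.83 ± 0.072 SE, adjusted p = 1.7e-07, limma). The order of means was C1 dKO, C1 WT, dKO-LAP*, C2 dKO and C2 WT, and among neighbours C1 WT and dKO-LAP* overlapped.

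Rac2 (chromosome 15, 78559167 to 78572783, minus strand) encodes the blood-cell Rac GTPase that activates the assembled oxidase. It rose in C1 dKO cells. The C1 WT libraries held 9944, 9624 and 10563 normalized reads and the C1 dKO libraries 12024, 12040.3 and 12295. All 3 dKO libraries were above the WT libraries, by a log2 fold change of 0.27 ± 0.072 SE (1.21-fold, adjusted p = 0.0071, limma). The dKO-LAP* libraries held 12316, 10872 and 11849 and overlapped those of dKO (log2 difference -0.06, 95% interval -0.21 to 0.10, adjusted p = 0.75, limma). Against WT they were higher by 0.22 ± 0.072 SE (adjusted p = 0.029, limma). That call was lost with no filter on low values (adjusted p = 0.063), with only the groups compared (0.11), and without the first or second C1 WT library or the first or the third dKO-LAP* library (0.078 to 0.11).

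In clone C2 the WT libraries held 6709, 6536 and 7220.1 normalized reads of Rac2 and the dKO libraries 6919, 7652 and 6945, with overlap (log2 fold change 0.07, 95% interval -0.08 to 0.22, adjusted p = 0.46, limma). The difference between the clones was -0.20 (95% interval -0.42 to 0.02, adjusted p = 0.16, limma), and with quantile normalization it was -0.34 and passed (adjusted p = 0.017). C2 WT cells held less Rac2 than C1 WT cells (log2 fold change -0.56 ± 0.072 SE, adjusted p = 1.1e-05, limma). The means ran in the order C1 dKO, dKO-LAP*, C1 WT, C2 dKO and C2 WT, with overlap inside the first pair and the last pair.

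**Figure D2:**
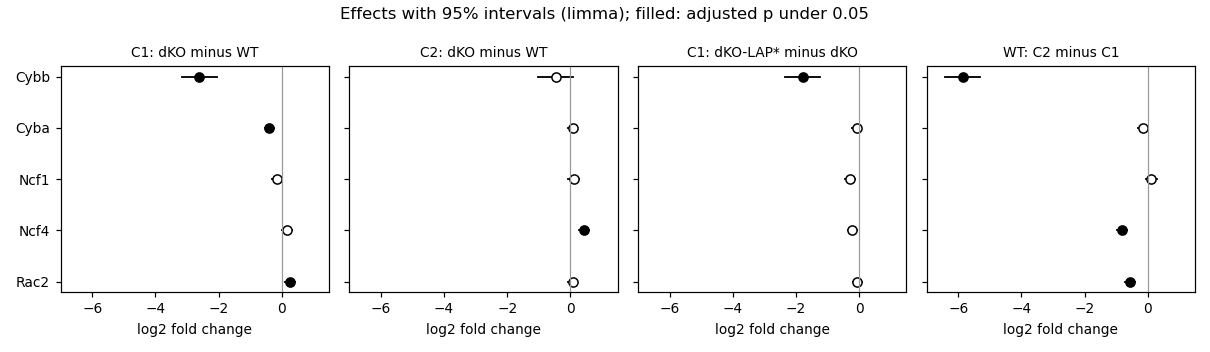
Log2 fold change (points) and 95% interval (lines, limma) of each subunit in 4 comparisons; filled points passed an adjusted p of 0.05. Cybb reaches -5.86 between the WT lines, and no other subunit moved by more than 0.83 in these comparisons.

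Across the 5 genes, the calls in C1 dKO cells were 3 of 5, against 37.0% of all genes tested. Cybb and Cyba were lower, where 19.9% of genes were called lower, and Rac2 was higher, where 17.1% were called higher. In clone C2 the call on Ncf4 was 1 of 5, against 37.6% of all genes, 17.4% being called higher and 20.1% lower. The dKO effect differed between clones for 2 of 5, Cybb and Cyba, against 29.4% of genes. LAP* changed 1 of 5 against dKO, Cybb, where the background was 4.46%, and with a pseudocount of 5 or DESeq2 the count was 2, with Ncf1. That background came from 181 genes higher and 384 lower, and with 1 library left out these fell to as few as 73 (without the second dKO-LAP* library) and 187 (without the second C1 dKO library). Against C1 WT, 4 of 5 were called in dKO-LAP* cells (Cybb, Cyba and Ncf1 lower, Rac2 higher), with a background of 32.5%. Between the WT lines 3 of 5 were called, all lower in C2, against 41.0% of genes. The dKO-against-WT comparison of C1 shares its WT libraries with the comparisons of dKO-LAP* and of C2 WT, and its dKO libraries with that of dKO-LAP* against dKO.

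Over the 5 group means Cybb ranged over 6.33 on the log2 scale, and 2.08% of the genes tested had a larger range. The range was 0.99 for Ncf4, 0.83 for Rac2, 0.64 for Ncf1 and 0.46 for Cyba. The median over genes tested was 0.67, so the range was above it for Cybb, Ncf4 and Rac2 and below it for Ncf1 and Cyba.

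Levels were compared between genes per kb of exon. In C1 WT cells the mean normalized reads per kb were 4212 for Cyba, 3237 for Rac2, 2485 for Ncf1, 1857 for Cybb and 1405 for Ncf4. Cybb RNA was thus within the range of its partners there, at 0.416 to 0.462 times Cyba per kb in the 3 libraries. This ratio was 0.0833 to 0.111 in C1 dKO, 0.0249 to 0.0345 in dKO-LAP*, 0.00481 to 0.0124 in C2 WT and 0.00462 to 0.00784 in C2 dKO libraries. Cybb was 13.6% to 14.9% of the summed level per kb of the 5 genes in C1 WT and 0.183% to 0.282% in C2 dKO libraries. Rac2 was above Cyba in C1 dKO (3906 against 3211 per kb) and dKO-LAP* cells (3764 against 3059) and below it in both C2 groups. With the longest transcript as the length, Cyba led in these groups too, so that order rests on the length chosen.

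**Figure D3:**
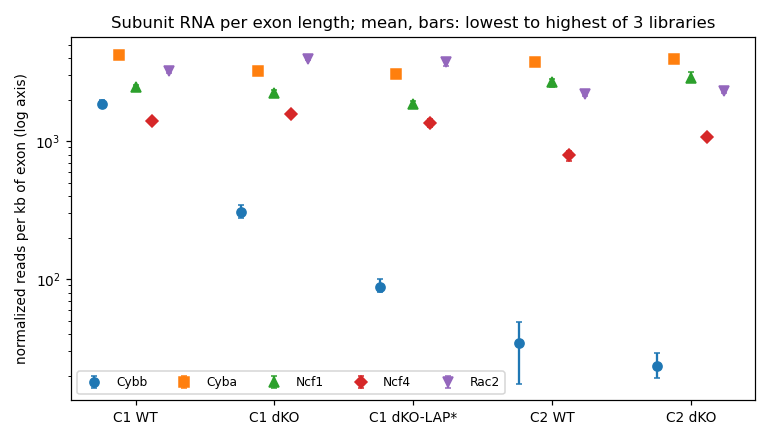
Normalized reads per kb of exon (log axis) for the 5 subunits in the 5 groups; points are means and bars run from the lowest to the highest of 3 libraries. Cybb drops from 1857 in C1 WT to 23.3 in C2 dKO, and the lowest mean of the others is 793.3, that of Ncf4 in C2 WT.

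Of 4 other genes tied to the oxidase (Cybc1, Rac1, Rap1a and Hvcn1), 1 was called higher and 1 lower in C1 dKO cells, against 17.1% and 19.9% of all genes (median log2 fold change -0.15, all genes -0.01). In C2 dKO cells 1 was higher and 0 lower, against 17.4% and 20.1% of all genes (median 0.12, all genes -0.03). Hvcn1, the voltage-gated proton channel that balances charge during the oxidative burst, rose by 0.46 in C1 (adjusted p = 0.032, limma) and by 1.16 in C2 (adjusted p = 3.2e-05). Its C1 call was lost without any 1 of 5 of the 6 C1 libraries (adjusted p 0.061 to 0.12). Hvcn1 was at 1992 ± 393 in C1 WT and 300 ± 61.7 in C2 WT cells (SD, n = 3 each), a log2 difference of -2.73 (adjusted p = 1.7e-09, limma). Rac1, the widely expressed relative of Rac2, was at -0.25 in C1 (adjusted p = 0.043, limma), a call lost under 5 of 8 other settings and without the first or the second C1 WT library or the second or the third C1 dKO library, and at -0.16 in C2 (adjusted p = 0.19), which passed with only the groups compared (0.044).

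Of 9 genes of the other NADPH oxidases and their partners, 2 had any read and 1 was tested. That gene was Noxo1, an organizer of Nox1, at 10.1 to 21.3 normalized reads in the group means, with 0 calls by limma in either clone (unadjusted p under 0.05 in 0). Nox1 was at 5.95 ± 3.19 in C1 WT cells (SD, n = 3) and lower elsewhere. In these libraries Cybb was therefore the catalytic NADPH oxidase subunit with most reads in every group.

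All 15 genes of upstream signalling, which hold kinases that phosphorylate p47phox, lipid kinases, Rac exchange factors and GDP dissociation inhibitors, were tested. In C1 dKO cells 7 were higher and 2 lower, against 17.1% and 19.9% of all genes (median log2 fold change 0.20, all genes -0.01). In C2 dKO cells 5 were higher and 5 lower, against 17.4% and 20.1% of all genes (median 0.08, all genes -0.03). Pak1, a Rac effector kinase, rose by 0.81 in C1 (adjusted p = 2.9e-05, limma) and 0.99 in C2 (adjusted p = 4.2e-06). Prkca, a protein kinase C at 47.4 to 163 normalized reads in the group means, rose by 0.60 in C1 (adjusted p = 0.02, limma) and by 1.79 in C2 (adjusted p = 2.6e-06). Prkcd, at 2026 to 4630, fell in both clones (log2 fold change -0.31 and -0.36, adjusted p = 0.01 and 0.0037, limma). Prkcb rose in C1 and fell in C2 (0.60 and -0.77, adjusted p = 0.00012 and 1.2e-05, limma). Prkcd and Prkcb were chosen after their values were seen. The C1 call on Prkca was lost without the first C1 WT library (0.093) or the first or the third C1 dKO library. Arhgdib, the GDP dissociation inhibitor with most reads of this list, was at 0.13 in C1 and 0.24 in C2 (adjusted p = 0.27 and 0.0518, limma), and the C2 change passed with edgeR (0.028) and DESeq2 (0.014). Arhgdia was at -0.16 in C1 (adjusted p = 0.14, limma) and fell by 0.26 in C2 (adjusted p = 0.024), a call lost with only the groups compared and without the third C2 WT library or the first C2 dKO library.

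All 14 genes that handle superoxide and peroxide, the products of the oxidase, were tested. In C1 dKO cells 2 were higher and 6 lower, against 17.1% and 19.9% of all genes (median log2 fold change -0.20, all genes -0.01). In C2 dKO cells 4 were higher and 2 lower (median 0.07, all genes -0.03), and 37.6% of all genes were called in this comparison, so the C2 count is near the background. Mpo, which makes hypochlorous acid from the peroxide, rose from 14170 ± 1490 to 69700 ± 9400 normalized reads in C1 (SD, n = 3 each; log2 fold change 2.29, adjusted p = 2.8e-06, limma). In C2 it rose from 2798 ± 1100 to 22690 ± 5840 (SD, n = 3 each; log2 fold change 3.08, adjusted p = 1.4e-07, limma). Gsr, glutathione reductase, fell in both clones (log2 fold change -1.10 and -0.46, adjusted p = 5.1e-08 and 0.00042, limma). The peroxiredoxins Prdx1 and Prdx5 moved in opposite ways. Prdx1 was at -0.65 in C1 and 0.36 in C2, and Prdx5 at 0.49 and -0.41 (adjusted p 0.00081, 0.036, 0.0011 and 0.0045, limma). The C2 call on Prdx1 was lost under 6 of the alternatives. Sod2, the mitochondrial superoxide dismutase, was chosen after its values were seen. It fell from 3611 ± 393 to 974 ± 4.81 in C1 (SD, n = 3 each; log2 fold change -1.88, adjusted p = 3.4e-11, limma) and was at 0.08 in C2 (adjusted p = 0.44).

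**Figure D4:**
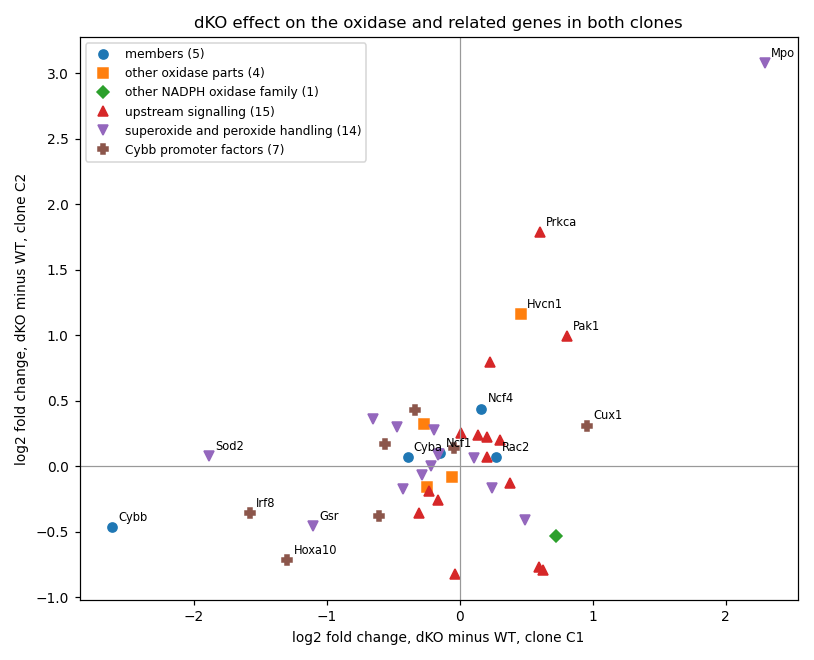
Log2 fold change of dKO minus WT in clone C1 (horizontal) and clone C2 (vertical) for the 5 subunits ("members") and the genes of 5 related lists, with the number of genes tested in brackets. Cybb lies far left at -2.61 and Mpo far upper right at 2.29 and 3.08, while the other 4 subunits lie near the centre.

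Of 7 transcription factors described at the CYBB promoter, 1 was higher and 4 lower in C1 dKO cells, against 17.1% and 19.9% of all genes (median log2 fold change -0.56, all genes -0.01). In C2 dKO cells 1 was higher and 1 lower (median 0.14, all genes -0.03), a share below the 37.6% of all genes called. Spi1, which encodes PU.1, was at 3524 ± 205 in C1 WT and 3426 ± 213 in C1 dKO cells (SD, n = 3 each; log2 fold change -0.04, adjusted p = 0.74, limma), and its C2 fold change was 0.14 (adjusted p = 0.19). Cux1, a repressor of CYBB, rose by 0.96 in C1 and 0.31 in C2 (adjusted p = 1.6e-07 and 0.0058, limma). Hoxa10, described as a repressor of CYBB, fell from 587 ± 56.1 to 240 ± 36.6 in C1 (SD, n = 3 each; log2 fold change -1.29, adjusted p = 2.8e-07, limma) and by 0.72 in C2 (adjusted p = 0.00013). Hoxa9 fell by 0.61 in C1 (adjusted p = 0.013, limma) and was at -0.38 in C2 (adjusted p = 0.11), which passed with only the groups compared (0.028). The C1 call on Hoxa9 was lost without the second C1 WT library or the third C1 dKO library.

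Irf8, an activator of CYBB, was chosen after its values were seen. Its mean over 3 libraries was 885 normalized reads in C1 WT (lowest to highest 806 to 999), 299 ± 59.7 (SD) in C1 dKO, 372 ± 76.5 in dKO-LAP*, 89.0 ± 14.4 in C2 WT and 68.8 ± 7.46 in C2 dKO cells. In C1 it fell with the deletion (log2 fold change -1.58, adjusted p = 3.7e-06, limma) and was lower in C2 WT than in C1 WT cells (log2 fold change -3.31, adjusted p = 6.4e-10). Against dKO it was at 0.32 in dKO-LAP* cells (95% interval -0.06 to 0.69, adjusted p = 0.37). The part of these factors in the level of Cybb was not tested.

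Markers of myeloid cell types moved between the groups as well. The sum of 6 monocyte and macrophage markers was 5290.0 to 6825 normalized reads in C1 WT, 2245 to 3030.0 in C1 dKO, 2258 to 2750.0 in dKO-LAP*, 246 to 506 in C2 WT and 1035 to 1744 in C2 dKO libraries. Of these 6 genes 4 were tested, with 0 higher and 3 lower in C1 dKO (37.0% of all genes called) and 1 higher and 1 lower in C2 dKO cells (37.6% called). C1qa was at or under the floor of 3 reads in every group, so the sum came mostly from Csf1r and Adgre1. Csf1r was at 45.9 ± 16.6 in C2 WT and 60.8 ± 12.2 in C2 dKO cells, and Adgre1 at 293 ± 112 and 1421 ± 377 (SD, n = 3 each), so the sum of C2 dKO cells came mainly from Adgre1.

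The sum of 6 eosinophil markers was 98.8 to 123 in C1 WT, 8215 to 15150 in C1 dKO, 1006 to 2004 in dKO-LAP*, 13.6 to 21.1 in C2 WT and 272 to 379 in C2 dKO libraries. Prg2, Prg3, Epx and Il5ra were at 0 in C1 WT libraries and passed the filter on low values through other groups, so no count of calls is given for this list. Ccr3 was at or under the floor in every group. The sum of 10 neutrophil markers was 27440 to 35660, 95740 to 119400, 37720 to 42270, 51790 to 94070 and 60410 to 94840 in the same order, with 9 higher and 0 lower in C1 dKO and 3 higher and 1 lower in C2 dKO cells. The sum of 7 progenitor markers was 79900 to 87510, 147800 to 170800, 139100 to 167900, 60510 to 62750 and 109900 to 128500. Of these, 6 were higher and 1 lower in C1 dKO cells, and 5 were higher and 0 lower in C2 dKO cells. Beside these counts, 17.1% of all genes were higher and 19.9% lower in C1 dKO cells, and 17.4% and 20.1% in C2 dKO cells. Cd34, among the progenitor genes counted as higher in both clones, passed the filter through the dKO and dKO-LAP* groups alone, so its calls carry no weight. The 4 erythroid markers summed to 18.3 or less and the 3 lymphoid markers to 2.1 or less in every library. Of 4 hepatocyte markers Afp was detected, and the sum was 165 or less. The part of these cell types in the levels of the subunits was not tested.

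**Figure D5:**
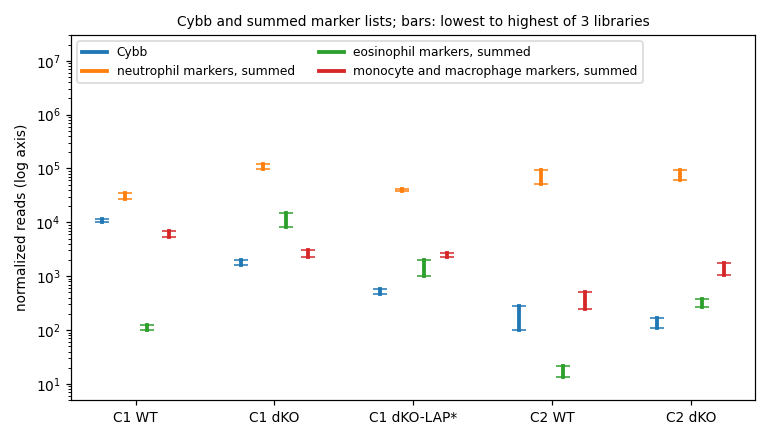
Normalized reads (log axis) of Cybb and the summed markers of 3 myeloid cell types by group; bars run from the lowest to the highest of 3 libraries. Cybb and the monocyte markers are high in C1 WT, and the eosinophil markers are highest in C1 dKO at 8215 to 15150.

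Ncf4 and Rac2 lie 296586 bases apart on chromosome 15, with 17 annotated genes between them, among them Csf2rb and Csf2rb2, the β chains of the receptors for IL-3, in which the cells were grown. Of the 17 genes 5 were tested. In C1 dKO cells 2 were higher and 0 lower (Csf2rb2 and Tst), and in C2 dKO cells 0 were higher and 2 lower (Tst and Mpst). These are near the 37.0% and 37.6% of all genes called. Csf2rb2 was at 1153 ± 167 in C1 WT and 1846 ± 173 in C1 dKO cells (SD, n = 3 each; log2 fold change 0.68, adjusted p = 0.0027, limma), and Csf2rb at 5795 ± 531 and 6771 ± 550 (log2 fold change 0.23, adjusted p = 0.082, limma). Ncf4 and Rac2 themselves were both lower in C2 WT than in C1 WT cells. Of the genes between them Csf2rb2 and Csf2rb were lower in C2 WT, Tst and Mpst were higher, and Kctd17, under 1 normalized read in both C2 groups, passed the filter through the C1 groups alone. Of all genes 41.0% were called between the WT lines.

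The genes whose pattern was most like that of each subunit were taken as those with the smallest root mean square difference of centred log2 group means over the 5 groups, and they are a description. For Cybb these were Cc2d2a (0.50), Axl (0.53) and Chst15 (0.56). Chst15, a sulfotransferase, was at 277 ± 18.7 in C1 WT, 96.9 ± 24.0 in C1 dKO, 42.8 ± 5.13 in dKO-LAP*, 7.52 ± 0.659 in C2 WT and 4.84 ± 2.25 in C2 dKO cells (SD, n = 3 each). Axl, a receptor tyrosine kinase, was at 51.0 ± 5.98 in C1 WT cells and under 9 in the other group means, with 0 in the C2 dKO libraries. Cc2d2a was at 37.6 ± 10.8 in C1 WT and 0 in C2 dKO libraries. For Cyba the nearest included Itm2b and Ctu2 (0.03 and 0.04), for Ncf1 Gm6421, Smim19 and Gm42659 (0.02 to 0.05), for Ncf4 4933421O10Rik, Pisd-ps2 and Gm47798 (0.05 to 0.06), and for Rac2 Nek9, Gm45769 and Gm15972 (0.02 to 0.04). The subunits themselves were left out of this ranking, so it does not compare them with each other. Cc2d2a, Gm6421, Gm42659, 4933421O10Rik, Pisd-ps2, Gm47798, Gm45769 and Gm15972 had group means under 50 normalized reads, where counting error is large. The same holds for Axl outside C1 WT and for Chst15 in dKO-LAP* and both C2 groups.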

How the data were processed

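RNA-seq was done on 3 RNA isolations of each of 5 lines. The authors aligned reads to mm10 with STAR 2.5.3a, counted them per gene with HTSeq 0.10.0 and normalized with DESeq2 1.26.0 (the submitters' processing notes). The annotation and strand setting of the counting are not given in the sources used here. The deposited signal is a count divided by 1 size factor per library. At least 99.99% of values lay within 0.1 of a whole read, so reads were recovered. The 5 rows that name no gene (22.4% to 26.2% of reads) and 3 columns not matched to a sample were left out, and LAP* was analysed here in clone C1 only. Symbols and positions came from GENCODE vM21.

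Genes that reached 10 normalized reads in 3 or more libraries were tested with limma 3.58.1 (R 4.3.3) on log2(normalized reads + 1), with 1 mean per group, all 15 libraries and a trended prior, and p-values were Benjamini-Hochberg adjusted over 12673 genes. Alternatives were pseudocounts of 0.1 and 5, no filter, quantile normalization, only the groups compared, a replicate block, edgeR 4.0.16 and DESeq2 1.42.0 on recovered reads, and each library left out. The floor was 3 reads, and depth limits counting error only. Members and lists were chosen with earlier results of these data known. From each list, the genes with the highest mean level and those called in both clones with the largest mean change were named, and for each subunit the 3 genes nearest in pattern. Some genes of these lists are not reported here.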

Additional observations from a re-analysis of the deposited data

Results flagged for a closer look

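The dKO effect differed between clones C2 and C1 for the genes below, by the test of the difference itself in limma. For Cybb, C2 minus C1 was 2.15 ± 0.37 SE (log2, adjusted p = 0.00039), between -2.61 in C1 and -0.46 in C2, and it was 1.72 to 2.46 with 1 library left out. For Cyba it was 0.46 (adjusted p = 0.0013), with -0.39 in C1 and 0.07 in C2. Among the related genes the difference was 0.70 for Hvcn1 (adjusted p = 0.027), 1.18 for Prkca (0.0034), 0.64 for Gsr (0.00066), 1.01 for Prdx1 (0.00054), -0.90 for Prdx5 (0.0002), 0.58 for Hoxa10 (0.013), -0.65 for Cux1 (0.00046), 1.96 for Sod2 (3.6e-09) and 1.22 for Irf8 (0.0016). Between Ncf4 and Rac2 it was -0.46 for Csf2rb (0.02), -1.06 for Tst (0.0046) and -0.59 for Mpst (0.0044). Over the whole lists, C2 minus C1 was called above 0 and below 0 for 2 and 3 of 15 genes of upstream signalling, 5 and 2 of 14 of superoxide and peroxide handling, and 3 and 1 of 7 of the promoter factors. The lowest values were those of Tiam1 (-1.41, adjusted p = 3.6e-05) and Prkcb (-1.37, 2.5e-06), chosen after their values were seen. Of all genes tested, 29.4% differed in this way. Each clone came from 1 mouse, so clone and mouse cannot be told apart, and C2 WT cells started from 58.2-fold less Cybb RNA than C1 WT cells.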

How the results depend on the processing

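For the 5 subunits in 6 comparisons, 233 of 240 values under other settings and 201 of 210 with 1 library left out kept their side of the threshold, and no called value changed sign. The exceptions with other settings were Ncf4 in C1 (0.29, quantile normalization), the clone difference of Ncf4 (0.28, DESeq2) and of Rac2 (-0.34, quantile normalization), Ncf1 in dKO-LAP* against dKO (-0.28 with a pseudocount of 5 and with DESeq2, giving 2 subunits called there), and Rac2 in dKO-LAP* against WT (0.22 with no filter and with only the groups compared). With each library left out, the log2 fold change of Cybb in C2 ran from -0.89 to -0.15 (1 to 2 subunits called), the clone difference of Ncf4 from 0.21 to 0.32, Rac2 in dKO-LAP* against WT from 0.18 to 0.27 and Cyba between WT lines from -0.20 to -0.14. For dKO-LAP* against dKO, genes called higher were 181, and 86 with only the groups compared and 73 to 171 with a library left out. Genes called lower were 384, and 187 to 308 with a library left out. The cause was not tested, beyond fewer libraries in these fits. Quantile normalization moved the higher and lower calls in C1 dKO from 2170 and 2516 to 2681 and 2052, and in dKO-LAP* against WT from 1796 and 2322 to 2521 and 1910. Libraries with the same number did not deviate together (correlations of 30 pairs -0.319 to 0.297). With a replicate block 2108 genes were higher and 2449 lower in C1 dKO, Cybb was at -2.61 (adjusted p = 4e-06, limma), and no call on a subunit changed. Levels per kb by longest transcript moved beyond 1 SD for 20 of 25 values. Cybb in clone C2 rests on 102 to 310 reads per library, so counting error is larger there than in clone C1.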
